A study of Mus musculus with 2 samples.

Results

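The epidermal growth factor (EGF) receptor family and its ligands were followed here through 9 genes of the 19059 counted in both libraries: the receptors Egfr, Erbb2 and Erbb3, and the ligands Egf, Tgfa, Hbegf, Areg, Btc and Ereg. The 9 genes were selected on measured values, namely their levels by cell type, their place along the liver lobule and their difference between libraries in these same data, so those values are given as a description. All 9 were detected in both libraries. Liver tissue was fixed and then dissociated, and its single cells were hybridized with gene-specific probes and counted with the 10x Genomics assay, in 1 library labelled AEG-1DMAC and 1 library labelled AEG-1fl/fl. Mice of both genotypes received HF/HSD for 20 weeks from an age of 7 weeks and were 27 weeks old at collection. In AEG-1DMAC mice, Cre recombinase under the Lyz2 (LysM) promoter acts on floxed AEG-1 (Mtdh) in myeloid cells, so deletion is limited to cells in which that promoter is active, and AEG-1fl/fl mice carry the floxed alleles without it. Whether a library pooled several livers is not given in the sources used here.

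EGF receptors are tyrosine kinases that pair after ligand binding and signal through RAS and MAP kinases, PI3 kinase and STAT proteins. Their ligands are made as membrane proteins and shed by metalloproteases, and Erbb2 binds no known ligand while Erbb3 has little kinase activity of its own, so both act mainly in pairs. In the liver, Egfr is abundant on hepatocytes and takes part in regeneration after tissue loss.

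The library labelled AEG-1DMAC held 2581 cells and 79589511 counts, and the library labelled AEG-1fl/fl held 3535 cells and 90440089 counts. The median cell had 12742 and 7686 counts, and 10 barcodes occurred in both libraries. Marker genes, none of them a family member, assigned 1384 and 1306 hepatocytes, 34 and 120 cholangiocytes, 272 and 357 endothelial cells, 213 and 348 stellate cells, and 281 and 674 macrophages, with the library labelled AEG-1DMAC first. Levels are in CPM, a gene's share of the summed counts of a cell type times 1000000, with Poisson 95% intervals. With 1 library per genotype there is no replicate, so no test was made and no p-value is given, and all intervals cover counting error only. Probes differ in number and efficiency between genes, so levels were compared between cells and libraries. A gene named as most abundant in a list has the highest CPM there, which is no comparison of expression between genes. Sums over a list are weighted by its probes in the same way.

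The targeted gene went against the labels. Mtdh in macrophages was at 125.8 CPM (113.2 to 139.5) in the library labelled AEG-1DMAC and at 24.2 CPM (20.3 to 28.6) in the library labelled AEG-1fl/fl, a log2 ratio of 2.38 (2.09 to 2.67). In hepatocytes the same gene was at 62.8 and 58.0 CPM. Endothelial cells had 91.4 and 106.0 CPM, stellate cells 103.0 and 86.3, and cholangiocytes 93.9 and 70.6. T and NK cells had 167.5 and 97.6 CPM on 32 and 43 counts, and B cells 137.1 and 95.45 on 25 and 36. Dendritic cells had 205.1 and 121.2 CPM on 19 and 38 counts, and neutrophils 0 and 3 counts. The cause of the macrophage difference was not tested. Which exons the Mtdh probes cover is not given in the sources used here. Each library is therefore named by its label throughout, and every direction below is a direction between labels.

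Egfr, the receptor for EGF, TGFα, amphiregulin and the other ligands counted here, was lower in hepatocytes of the library labelled AEG-1DMAC. Its level was 146.8 CPM (144.0 to 149.7) in the library labelled AEG-1DMAC and 455.6 CPM (450.7 to 460.6) in the library labelled AEG-1fl/fl. The log2 ratio, AEG-1DMAC over AEG-1fl/fl as in all ratios below, was -1.63 (-1.67 to -1.60), which is 3.10-fold lower in the library labelled AEG-1DMAC. Of 13136 genes with at least 20 summed counts in hepatocytes, 7.86% were at least 1.5-fold lower in that library and 5.40% at least 1.5-fold higher. Among 8766 genes with at least 1000 summed counts, 15 had a ratio as low as that of Egfr or lower, Egfr included.

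The Egfr difference was spread over hepatocytes. The median hepatocyte had 1.18 Egfr counts per 10000 in the library labelled AEG-1DMAC and 3.15 in the library labelled AEG-1fl/fl, and the 90th percentile of the first (2.70) lay below the median of the second. At least 1 Egfr count was found in 87.9% and 92.4% of hepatocytes, whose median depths were 27748 and 27085 counts. Hepatocytes with under 600 marker counts per 10000, 171 and 199 cells, had 142.9 and 785.2 CPM of Egfr, so the level in the library labelled AEG-1fl/fl was higher in these cells than in its other hepatocytes, at 432.3 CPM, and the level in the library labelled AEG-1DMAC was not.

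Genes with sex-biased expression in mouse liver, a group to which Egfr is known to belong as a male-biased gene, also differed between the libraries. Of 19 male-biased genes with at least 20 summed counts, 10 were at least 1.5-fold lower in hepatocytes of the library labelled AEG-1DMAC, beside 7.86% of all genes, and 1, Elovl3, was higher, beside 5.40%. Their median log2 ratio was -0.68, beside 0.01 over all 13136 genes, and their summed level was 6891 and 11049 CPM, with Mup20 the most abundant at 3023 and 5831 CPM. Of 13 female-biased genes, 5 were higher and 3 lower, beside the same shares of all genes, with a median of 0.43 and a summed level of 170.5 and 137.6 CPM. Cyp2b9 was at 16.7 and 1.04 CPM and the estrogen sulfotransferase Sult1e1 at 20.2 and 0.694 CPM, while Acot3, at 3.97 and 28.1 CPM, and Fmo2, at 7.06 and 17.6 CPM, went the other way. All 4 Y-linked genes were counted in both libraries, with summed levels of 144.7 and 143.8 CPM. The part of sex-biased expression in the Egfr difference was not tested.

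Along the lobule, hepatocytes were ordered by raw counts of Cyp2e1 (pericentral) against Cyp2f2 (periportal) and divided into 3 zones of equal cell number within each library. In both libraries all 15 other pericentral and all 15 other periportal check genes were higher in the outer zone of their name than in the opposite outer zone, although the periportal gene Ctsc was highest in the midlobular zone. Egfr in the library labelled AEG-1DMAC was at 181.6 CPM in the periportal, 132.1 in the midlobular and 118.0 in the pericentral zone, a pericentral over periportal log2 ratio of -0.62 (-0.69 to -0.55). In the library labelled AEG-1fl/fl the levels were 486.2, 401.0 and 454.4 CPM, with a ratio of -0.10 (-0.13 to -0.06), which became 0.07 when each cell was given equal weight. Over all genes with at least 20 summed counts, 29.4% and 16.1% differed at least 1.5-fold between the outer zones of the 2 libraries, and Egfr did so in the library labelled AEG-1DMAC only. There the ratio fell short of 1.5-fold without the 10% of hepatocytes with most counts (-0.43) and as a mean over cells (-0.51). The log2 ratio of Egfr between libraries was -1.42 in periportal, -1.60 in midlobular and -1.95 in pericentral hepatocytes.

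Egfr was also counted outside hepatocytes, at lower levels than in hepatocytes in the library labelled AEG-1fl/fl. Cholangiocytes had 135.6 CPM (104.7 to 172.9) in the library labelled AEG-1DMAC and 300.5 (281.8 to 320.1) in the library labelled AEG-1fl/fl, stellate cells 117.7 and 220.8, endothelial cells 64.4 and 83.0, and macrophages 54.2 and 94.0. In the library labelled AEG-1DMAC the intervals of hepatocytes and cholangiocytes overlapped, and so did those of cholangiocytes and stellate cells, and the highest type there was cholangiocytes with cells assigned by Seurat clusters and stellate cells as a mean over cells. B cells of the library labelled AEG-1fl/fl had 121 Egfr counts, 54 of them in 1 of 65 cells. Hepatocyte markers were counted outside hepatocytes too, at 369 to 890 counts per 10000 in the 4 types, beside 1305 and 1183 in hepatocytes. Whether they came from free RNA or from doublets was not tested. Set against 100000 hepatocyte marker counts, Egfr in the library labelled AEG-1fl/fl was 385 in hepatocytes, 393 in cholangiocytes, 332 in stellate cells, 255 in macrophages and 182 in endothelial cells, so no type stood far above the ratio of hepatocytes. In the library labelled AEG-1DMAC the ratio was 113 in hepatocytes, 206 in cholangiocytes, 132 in stellate cells, 87.1 in endothelial cells and 83.8 in macrophages. With each cell thinned to 2000 counts and smaller cells left out, 29.6% and 33.8% of stellate cells had an Egfr count. The shares were 9.01% and 11.6% in endothelial cells and 7.30% and 11.4% in macrophages. They were 17.2% and 22.8% in cholangiocytes and 24.6% and 48.9% in hepatocytes.

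**Figure D1:**
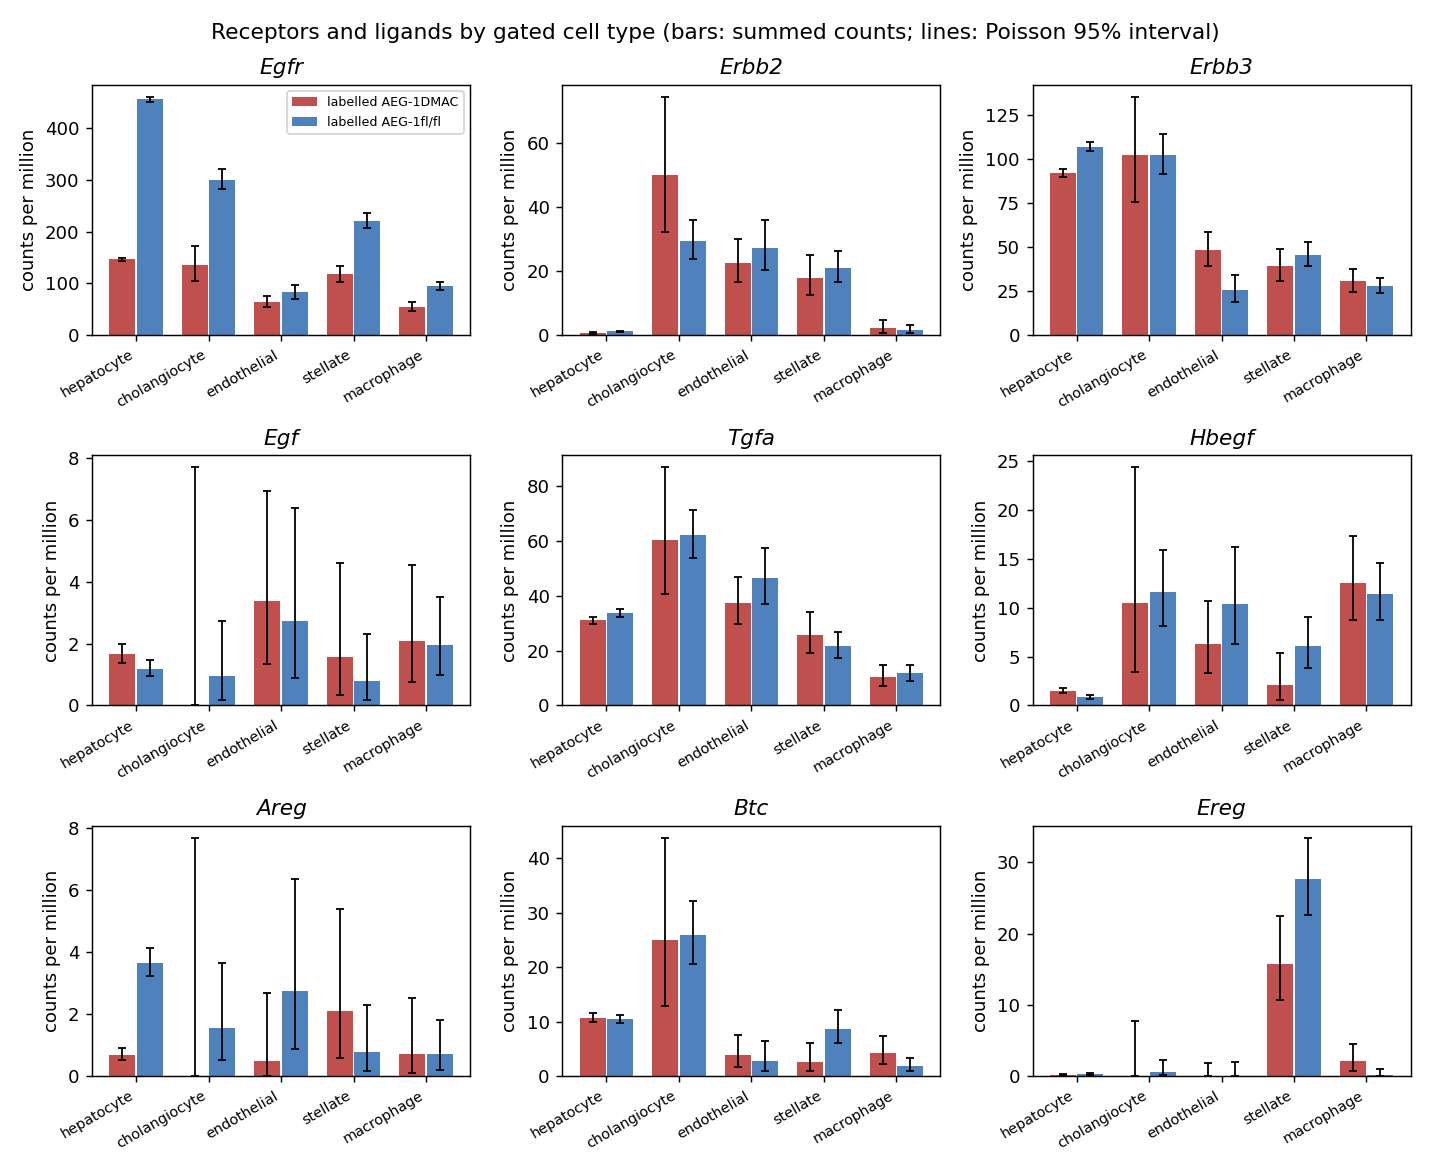
Levels of the 9 genes in 5 gated cell types of each library, in CPM on a linear axis that differs between panels, with bars for the summed counts and lines for Poisson 95% intervals. Egfr in hepatocytes stands at 146.8 CPM in the library labelled AEG-1DMAC and 455.6 CPM in the library labelled AEG-1fl/fl, while Ereg is highest in stellate cells of both.

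Erbb2, the receptor without a known ligand, was nearly absent from hepatocytes, at 0.625 CPM (0.454 to 0.840) and 1.11 CPM (0.881 to 1.38). Cholangiocytes had 50.1 CPM (32.1 to 74.5) in the library labelled AEG-1DMAC and 29.4 CPM (23.7 to 35.9) in the library labelled AEG-1fl/fl. Endothelial cells had 22.6 and 27.3 CPM and stellate cells 17.9 and 21.1 CPM, with overlapping intervals between these 2 types in each library. Set against 100000 hepatocyte marker counts, Erbb2 was at 0.479 and 0.940 in hepatocytes and at 30.6 and 60.0 in endothelial cells, far above the hepatocyte ratio. With each cell thinned to 2000 counts, 5.58% and 8.06% of endothelial cells had an Erbb2 count, against 0.217% and 0.153% of hepatocytes. Unthinned, 38 of 272 and 47 of 357 endothelial cells had one, and 2.75% and 4.75% of hepatocytes, and 39 and 47 endothelial cells and no hepatocyte fell below 2000 counts. No Erbb2 count was found in T, NK or B cells of either library.

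Erbb3, which binds neuregulins, was counted in hepatocytes and cholangiocytes at like levels before any hepatocyte background was subtracted. Hepatocytes had 92.1 CPM (89.9 to 94.4) and 106.9 CPM (104.5 to 109.3). Cholangiocytes had 102.3 CPM (75.6 to 135.2) and 102.4 CPM (91.7 to 114.2), and the intervals of the 2 types overlapped in each library. Set against 100000 hepatocyte marker counts, Erbb3 was at 70.6 and 90.4 in hepatocytes and at 155 and 134 in cholangiocytes. With the hepatocyte profile subtracted in proportion to these markers, 55.8 and 33.4 CPM were left in cholangiocytes. Hepatocytes were then the highest type in both libraries. The subtraction lowers only the other types and does not rescale what is left, so it cannot rank cholangiocytes against hepatocytes. The like levels are not read as equal expression. The log2 ratio between libraries in hepatocytes was -0.21 (-0.26 to -0.17), well short of that of Egfr. Its lobular pattern ran opposite to that of Egfr in the library labelled AEG-1DMAC, from 77.9 CPM periportal to 110.7 CPM pericentral, and it went from 96.2 to 124.6 CPM in the library labelled AEG-1fl/fl. The ratios were 0.51 (0.42 to 0.59) and 0.37 (0.30 to 0.45). Erbb4, the remaining receptor of the family, was at 6.07 and 6.33 CPM in hepatocytes and at 56.4 and 29.4 CPM in cholangiocytes.

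**Figure D2:**
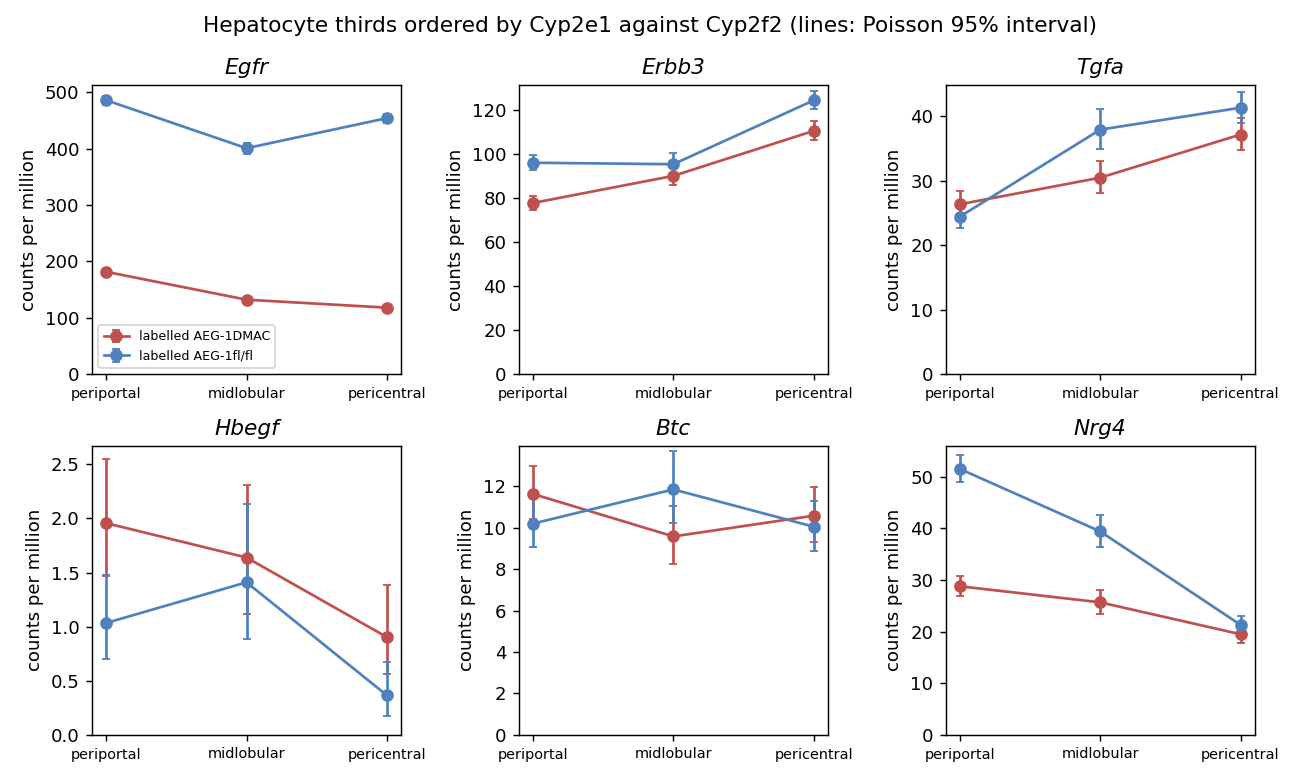
Levels in periportal, midlobular and pericentral zones of hepatocytes, in CPM on linear axes, with points for summed counts of a zone and lines for Poisson 95% intervals. Erbb3 and Tgfa are higher in the pericentral than in the periportal zone of both libraries, and Nrg4 and Hbegf are lower.

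Among the ligands, Tgfa, which codes for transforming growth factor α, was counted in all 5 types. Cholangiocytes had 60.5 CPM (40.5 to 86.9) and 62.2 CPM (53.8 to 71.4), endothelial cells 37.5 and 46.4 CPM, hepatocytes 31.1 and 33.8 CPM, stellate cells 25.8 and 21.6 CPM, and macrophages 10.4 and 11.8 CPM. The order of these 5 types was the same in both libraries, but the intervals of cholangiocytes and endothelial cells overlapped in both, and those of endothelial cells and hepatocytes and of hepatocytes and stellate cells overlapped in the library labelled AEG-1DMAC. Set against 100000 hepatocyte marker counts, Tgfa was at 23.8 and 28.6 in hepatocytes, 28.9 and 32.4 in stellate cells and 16.1 and 31.9 in macrophages, so the counts of the last 2 types are not read as expression there. The ratio was 92.0 and 81.3 in cholangiocytes and 50.7 and 102 in endothelial cells. In hepatocytes Tgfa was higher toward the central vein, from 26.4 to 37.2 CPM in the library labelled AEG-1DMAC and from 24.4 to 41.3 CPM in the library labelled AEG-1fl/fl, ratios of 0.50 (0.35 to 0.64) and 0.76 (0.62 to 0.90).

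Btc, coding for betacellulin, had nearly equal levels in hepatocytes and in cholangiocytes of the libraries. Hepatocytes had 10.7 and 10.5 CPM, a log2 ratio of 0.03 (-0.12 to 0.18), and cholangiocytes had 12 and 83 counts, with intervals of 12.9 to 43.7 and 20.7 to 32.1 CPM. Between the outer zones its ratio was -0.14 (-0.38 to 0.11) and -0.02 (-0.26 to 0.22), so no lobular difference was detectable at this depth.

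Hbegf, coding for heparin-binding EGF-like growth factor, was higher in macrophages, cholangiocytes and endothelial cells than in hepatocytes. Macrophages had 12.5 CPM (8.77 to 17.3) and 11.4 CPM (8.78 to 14.6), cholangiocytes 10.4 and 11.6 CPM, endothelial cells 6.25 and 10.4 CPM, and hepatocytes 1.52 and 0.861 CPM. The intervals of the first 3 types overlapped in each library, and cholangiocytes of the library labelled AEG-1DMAC had 5 counts (3.39 to 24.4 CPM). The macrophage levels did not differ between libraries beyond counting error, with a ratio of 0.14 (-0.50 to 0.75), although Mtdh in the same cells did. In hepatocytes the ratio was 0.82 (0.36 to 1.30), on 107 and 62 counts, where macrophage markers summed to 979.5 and 821.3 CPM, and the periportal zone held more than the pericentral zone in both libraries, with ratios of -1.12 and -1.50. In the library labelled AEG-1fl/fl 12 of the 30 periportal counts lay in 1 cell, and the ratio was -2.50 as a mean over cells.

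Ereg, coding for epiregulin, was counted mostly in stellate cells, with 30 of 48 gated counts in the library labelled AEG-1DMAC and 105 of 129 in the library labelled AEG-1fl/fl. The other counts of the library labelled AEG-1DMAC were 12 in hepatocytes and 6 in macrophages. Its stellate level was 15.8 CPM (10.6 to 22.5) and 27.6 CPM (22.6 to 33.5), a log2 ratio of -0.81 (-1.45 to -0.21), in cells whose stellate markers summed to 18394 and 28555 CPM. Hepatocytes had 0.171 and 0.278 CPM. No count was found in endothelial cells of either library, which allows up to 1.44 and 1.64 CPM (3 counts).

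Areg, coding for amphiregulin, was at 0.682 CPM (0.503 to 0.905) and 3.67 CPM (3.24 to 4.14) in hepatocytes, a log2 ratio of -2.43 (-2.90 to -1.98). The counts lay in few cells: 42 of 1384 and 81 of 1306 hepatocytes had at least 1, and in the library labelled AEG-1fl/fl the 10 cells with most held 57.2% of them. Without those 10 hepatocytes of each library the ratio was -1.81. Hepatocytes with a low marker share had 1.87 and 16.8 CPM. Stellate cells of the library labelled AEG-1DMAC had 2.10 CPM (0.573 to 5.38) on 4 counts. Egf itself had few counts in each type, with 116 and 86 in hepatocytes, at 1.65 and 1.20 CPM. Endothelial cells were highest of the 5 types, at 3.37 CPM (1.35 to 6.94) and 2.73 CPM (0.887 to 6.38) on 7 and 5 counts, with intervals that overlapped those of hepatocytes. The pericentral over periportal ratio of Egf was 1.11 (0.42 to 1.83) in the library labelled AEG-1DMAC and 0.22 (-0.53 to 0.97) in the library labelled AEG-1fl/fl.

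Counted over the family in hepatocytes, 4 of the 9 genes were at least 1.5-fold lower in the library labelled AEG-1DMAC (Egfr, Erbb2, Areg and Ereg), where 7.86% of all genes were, and 1 was higher (Hbegf), where 5.40% were. The median log2 ratio of the 9 was -0.21, beside 0.01 for all genes. The call of Ereg rests on 12 and 20 counts (-1.87 to 0.40), and its ratio was -0.15 when cells under 500 genes or over 5% mitochondrial counts were removed and -0.57 without hepatocytes of low marker share, within a range of -2.29 to -0.15 over 9 alternatives. Erbb2 fell short of 1.5-fold without the 10% of hepatocytes with most counts (-0.49), and so did Hbegf with cells assigned by Seurat clusters (0.53). Markers of cell types with higher levels of these genes moved in the same hepatocytes. Of 11 cholangiocyte markers with at least 20 summed counts, 9 were at least 1.5-fold lower in the library labelled AEG-1DMAC and none higher, with summed levels of 125.5 and 265.9 CPM and Spp1 the most abundant at 83.9 and 214.5 CPM. Of 16 stellate markers 3 were higher and 2 lower, at 421.7 and 390.3 CPM in sum, with Dcn at 77.4 and 64.7 CPM, while Col1a1 was at 24.1 and 43.1 CPM. Of 18 macrophage markers 4 were higher and 3 lower, at 979.5 and 821.3 CPM in sum, with Cd5l at 399.4 and 276.7 CPM, and of 15 endothelial markers 7 were higher and none lower, at 307.6 and 197.6 CPM in sum, with Stab2 at 39.7 and 29.5 CPM. The part of these markers in the calls of Erbb2, Ereg and Hbegf was not tested.

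In the nonparenchymal types, counts of members past 1.5-fold either way were 2 of 6 with at least 20 summed counts in cholangiocytes (37.3% of all genes), 2 of 5 in endothelial cells (24.8%), 4 of 7 in stellate cells (17.8%) and 2 of 5 in macrophages (21.4%). In stellate cells the 4 were lower in the library labelled AEG-1DMAC: Egfr, Hbegf, Btc and Ereg. Of the 23 Hbegf counts in stellate cells of the library labelled AEG-1fl/fl, 17 lay in 1 cell, and the log2 ratio of -1.53 (-3.52 to 0.02) was -0.01 without the cell with most counts in each library. Egfr was the member lower in cholangiocytes and in macrophages, Hbegf the one in endothelial cells (-0.73, -1.87 to 0.36), and 1 member was higher in each of these types: Erbb2 in cholangiocytes (0.77, 0.06 to 1.43), Erbb3 in endothelial cells (0.91, 0.39 to 1.44, at 48.1 and 25.7 CPM) and Btc in macrophages (1.23, -0.11 to 2.60).

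Hepatocyte markers moved with several of these pairs, at 740 and 455 counts per 10000 in endothelial cells, 890 and 666 in stellate cells and 647 and 369 in macrophages. For Egfr and Btc in macrophages and Erbb3 in endothelial cells the ratio to hepatocyte markers lay below that of hepatocytes in both libraries, so these 3 are not read as differences of the cells themselves. Subtracting the hepatocyte profile in proportion to these markers left the same 3, by construction, under the limit of 3 counts in both libraries. Egfr then turned direction in the other 2 types, with 61.6 and 5.83 CPM left in cholangiocytes and 17.6 and 0 CPM in stellate cells, so no direction is read for it there. After the subtraction 10 of 17 pairs were past 1.5-fold, not all of them the pairs named here. Erbb2 in cholangiocytes turned direction too when cells were assigned by Seurat clusters (-0.50). Only Btc and Ereg in stellate cells kept their direction and stayed past 1.5-fold under all 7 alternatives run. The Btc ratio there was -1.72 (-3.44 to -0.36) on 5 and 33 counts. After the subtraction Btc was at 0 and 2.78 CPM, and its ratio of -0.82 used 3 counts in place of 0. Set against 100000 hepatocyte marker counts, Btc was at 2.95 and 13.05 in stellate cells and at 8.21 and 8.88 in hepatocytes. Its counts in stellate cells of the library labelled AEG-1DMAC are therefore not read as expression there.

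Markers of the types themselves also differed between the libraries. In macrophages 7 of 18 macrophage markers were at least 1.5-fold lower in the library labelled AEG-1DMAC and 2 higher. Their summed levels were 23784 and 30022 CPM. Cells with Gpnmb, Mmp12 and Trem2 higher than Kupffer markers were 16 of 281 and 147 of 674 macrophages. The part of these in the macrophage comparisons was not tested. In stellate cells 6 of 16 stellate markers were at least 1.5-fold lower in the library labelled AEG-1DMAC and none higher, with summed levels of 18394 and 28555 CPM and Col3a1 the most abundant at 3880 and 7298 CPM. In endothelial cells 8 of 15 endothelial markers were lower and none higher, at 10216 and 14844 CPM in sum, with Egfl7 at 1423 and 2469 CPM. In cholangiocytes 8 of 12 cholangiocyte markers were higher and 1 lower, at 12625 and 7984 CPM in sum, with Spp1 at 9554 and 6199 CPM. Markers of other types moved too. In stellate cells 2 of 4 cholangiocyte markers were lower in the library labelled AEG-1DMAC and none higher, at 106.7 and 299.6 CPM in sum. Of 18 macrophage markers there, 8 were lower and 2 higher. In cholangiocytes 12 of 14 stellate and 11 of 16 macrophage markers were lower, with 1 macrophage marker higher. In endothelial cells 5 of 18 macrophage markers were higher and 3 lower. In macrophages 13 of 15 endothelial markers were higher and 1 lower, and 13 of 16 stellate markers were higher and none lower. Of 4 cholangiocyte markers there, 3 were lower and none higher, at 54.2 and 321.9 CPM in sum. The part of these in the macrophage levels of Hbegf and Mtdh was not tested. The part of other types' markers in the differences of Btc and Ereg in stellate cells, Hbegf in endothelial cells and Erbb2 in cholangiocytes was not tested either, nor was that of the types' own markers. Median-of-ratios scaling takes 0.22 off the log2 ratios in cholangiocytes and adds 0.17 in endothelial and 0.11 in stellate cells, and 8 of these 23 pairs of member and type, in place of 10, were then past 1.5-fold, without Erbb2 in cholangiocytes (0.55) and Hbegf in endothelial cells (-0.57). The remaining members had under 20 summed counts in the type concerned.

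The neuregulins are ligands of Erbb4, and some of them, such as Nrg1 but not Nrg4, also of Erbb3. Nrg4, with most of its counts in hepatocytes, was at 24.9 and 37.4 CPM in hepatocytes, a log2 ratio of -0.59 (-0.68 to -0.50) that was -0.39 without the 10% of hepatocytes with most counts and -0.46 as a mean over cells, and was higher in the periportal than in the pericentral zone of both libraries, with ratios of -0.56 and -1.27. The first was -0.26 without the 10% of hepatocytes with most counts and -0.36 as a mean over cells, and with the order set by other check genes the 2 were -1.63 and -2.01. Between libraries the Nrg4 ratio was -0.84 in periportal, -0.62 in midlobular and -0.13 (-0.31 to 0.05) in pericentral hepatocytes. It was 0.06 (-0.16 to 0.28) in hepatocytes of low marker share, at 82.9 and 79.8 CPM, and -0.67 in the others. Nrg1 was at 13.0 and 15.1 CPM in hepatocytes and 16.8 and 29.5 CPM in endothelial cells. Epgn had 5 and 4 counts in all cells and Nrg2 had 17 and 37.

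Of 79 further genes of the receptor pathway, 77 had at least 20 summed counts in hepatocytes. At least 1.5-fold higher in the library labelled AEG-1DMAC were 7, beside 5.40% of all genes, and lower were 4, beside 7.86%, and the median log2 ratio was 0.06 beside 0.01. No gene passed 1.5-fold among the 7 of ligand shedding, the 10 adaptors and ubiquitin ligases, the 10 RAS and MAP kinase genes, the 8 of PI3 kinase and AKT, the 4 STATs and the 3 of phospholipase C and SRC. Adam10, a protease that sheds ligands, came closest, at 17.4 and 26.1 CPM with a ratio of -0.58. Under median-of-ratios scaling 6 genes were lower, in place of 4, with Adam10 and the response gene Jun, at 126.8 and 190.0 CPM, then past 1.5-fold.

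Feedback inhibitors, which restrain the receptors or the MAP kinases after signalling, were higher where they passed 1.5-fold, in 4 of 15 cases with none lower, beside 5.40% of all genes higher and 7.86% lower, and their median ratio was 0.27, beside 0.01. In the same hepatocytes 7 of 15 endothelial markers were higher and none lower, and 9 of 11 cholangiocyte markers were lower and none higher. The part of such markers in these calls was not tested. Spry4 was at 17.5 CPM in the library labelled AEG-1DMAC and 8.20 CPM in the library labelled AEG-1fl/fl, a ratio of 1.09 (0.95 to 1.24). The MAP kinase phosphatases Dusp4 and Dusp5 had ratios of 0.91 (0.68 to 1.15) and 0.66 (0.42 to 0.91), and Socs3, an inhibitor of cytokine receptors, 0.77 (0.61 to 0.94). Errfi1, which binds the Egfr kinase directly and inhibits it, was at 1408 and 1211 CPM, a ratio of 0.22 (0.20 to 0.23), and Dusp6, at 134.9 and 130.4 CPM, was pericentral in both libraries with ratios of 1.11 and 1.17.

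Response genes, transcribed after receptor signalling and after many other stimuli, went both ways, with 3 of 17 higher and 3 lower, beside the same shares of all genes. Fos was at 11.5 and 6.42 CPM, a ratio of 0.84 (0.68 to 1.01), Etv5 at 10.0 and 6.17 CPM, and Fosl1 had 52 and 16 counts. Ccnd1, coding for cyclin D1, was at 24.8 and 44.8 CPM, a ratio of -0.85 (-0.94 to -0.77), Ier3 at 5.80 and 9.44 CPM, and Etv4 had 11 and 24 counts.

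**Figure D3:**
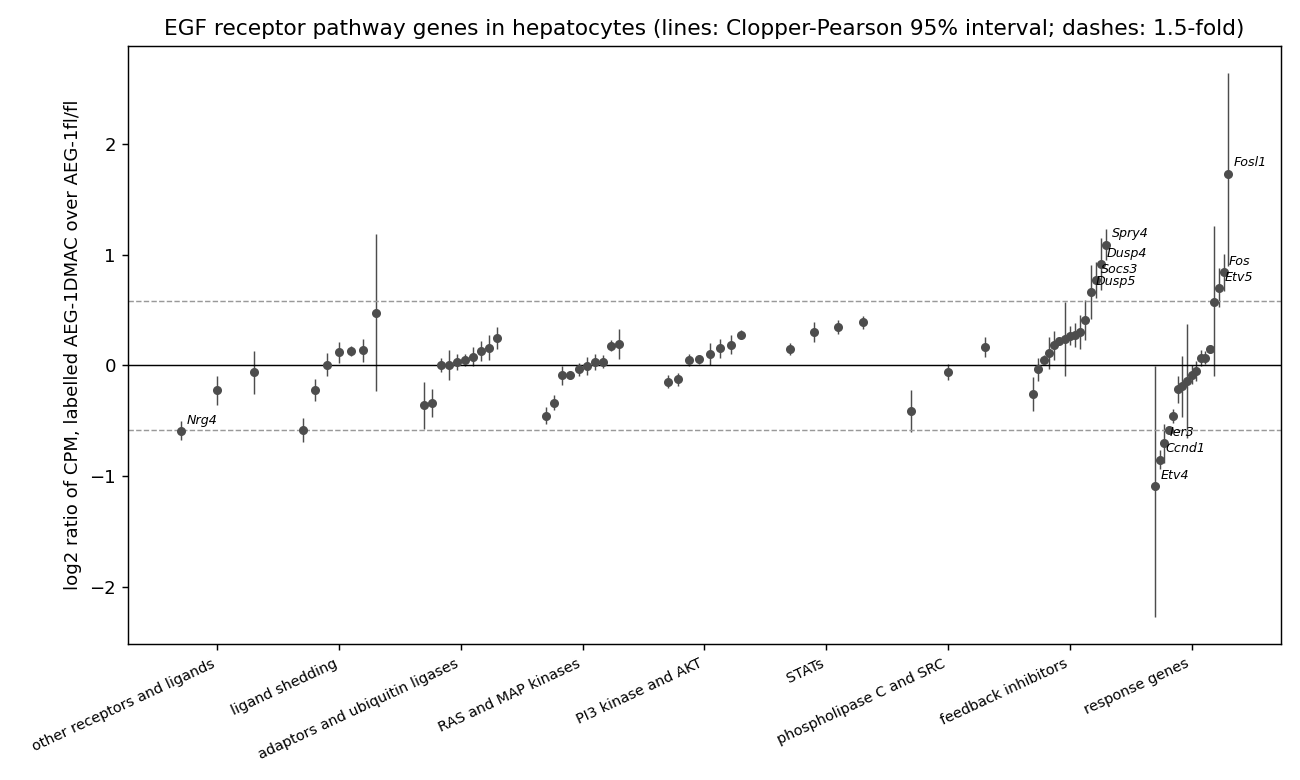
Log2 ratio of CPM in hepatocytes, library labelled AEG-1DMAC over library labelled AEG-1fl/fl, for the 77 pathway genes with at least 20 summed counts, grouped by role on the horizontal axis, with lines for Clopper-Pearson 95% intervals and dashes at 1.5-fold. The 4 feedback inhibitors past 1.5-fold lie above the upper dashed line, with Spry4 at 1.09.

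Genes with a pattern like that of a member were sought over 14 sums, those of 7 cell types in each of the 2 libraries, by Pearson correlation of log2(CPM + 5). The sums share libraries, and the values are descriptions. Mup20 (r = 0.925), Stbd1 (0.920) and Nat8 (0.893) were most like Egfr, Lamb2 (0.989), Adamts9 (0.985) and Cpne8 (0.975) most like Erbb2, and Mpzl2 (0.965), Dbi (0.957) and Chp1 (0.954) most like Erbb3. For Hbegf they were Pld2 (0.940), Anxa3 (0.934) and Pwwp2b (0.924). Tgfa had Rtkn (0.902), Egf had Nudt13 (0.885) and Areg had Baat (0.837) as their nearest genes, and Ereg, with 177 counts over gated cells, was below the minimum of 200.

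Ereg, Areg and Btc lie close together on chromosome 5 of GRCm38, at chr5:91074622-91093646 (plus strand), chr5:91139599-91148432 (plus strand) and chr5:91357261-91402994 (minus strand) in the GENCODE annotation, with Epgn before them at chr5:91027464-91035215. Egfr lies at chr11:16752203-16918158 (plus strand).

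Egfr and Areg had the lowest log2 ratios among the 9 genes in hepatocytes, and the 250 bases before the start of each are shown for that reason, from RefSeq on GRCm38, for Egfr chr11:16751953-16752202 and for Areg chr5:91139349-91139598, both on the plus strand. Promoter windows were found for 6 of the 9 genes. Capitals mark the GC box GGGCGG and the TATA box TATAAA, searched on both strands. Over 32851 windows of this length, 32.7% hold the first and 12.4% the second.
Egfr: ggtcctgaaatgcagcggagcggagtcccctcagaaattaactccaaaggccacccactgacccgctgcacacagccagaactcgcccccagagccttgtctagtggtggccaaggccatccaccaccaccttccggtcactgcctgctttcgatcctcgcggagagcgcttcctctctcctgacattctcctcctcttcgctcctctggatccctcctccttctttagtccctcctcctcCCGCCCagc
Areg: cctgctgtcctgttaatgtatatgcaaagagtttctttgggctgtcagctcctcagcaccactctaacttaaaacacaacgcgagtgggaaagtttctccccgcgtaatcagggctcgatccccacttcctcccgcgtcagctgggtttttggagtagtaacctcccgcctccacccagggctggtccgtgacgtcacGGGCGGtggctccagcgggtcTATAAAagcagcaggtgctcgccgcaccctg
The Egfr window holds 1 GC box, on the minus strand 9 bases before the start, and no TATA box, and the Areg window holds 1 of each, 52 and 31 bases before the start. A match of letters is a description and shows no binding.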

How the data were processed

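Probe-based single-cell libraries were counted by the authors with Cell Ranger 7.1.0 (version per the file headers and the submitters' processing notes) on mm10, and the deposited values are raw counts per gene and cell. Members and gene lists were chosen with earlier results of these data known. Cells under 100 genes or over 10% mitochondrial counts were removed, which left 2571 and 3508 cells. A cell took the type whose summed markers per 10000 counts passed a limit with at least 3 markers detected (macrophage 100, stellate 50, endothelial 40, cholangiocyte 25), limits set after the cells were seen, and a cell past 2 limits, the lower score at 50% or more of the higher in units of its limit, was left out as mixed. Bst2, counted in most types, was dropped from the dendritic markers. Hepatocytes needed 5000 counts and 150 marker counts per 10000 and passed no other limit. Near a limit, within 1.25-fold, lay 98 and 167 macrophage candidates. No doublet caller was run. Counts were summed in Python 3.11.15 with NumPy 2.4.6 and SciPy 1.17.1, ratios have Clopper-Pearson 95% intervals, and the calculations were tested on simulated data. Named genes were the members, their relatives and, by role, pathway genes at the ends of a role group or, for some groups, with at least 50 summed counts, and Etv4, Jun, Fmo2 and Ctsc were named after their values were seen. Alternative cell types came from Seurat 5.3.0 under R 4.3.3. The genes most like Btc are not reported here.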

Additional observations from a re-analysis of the deposited data

How the results depend on the processing

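Across the alternatives the direction of the Egfr difference in hepatocytes held in 9 of 9, from -1.69 to -1.56. The log2 ratio was -1.57 with a stricter gate, -1.68 when cells under 500 genes or over 5% mitochondrial counts were removed, and -1.69 as a mean over cells. Chosen after seeing the data, hepatocytes without those of low marker share gave -1.56 and those above the median count gave -1.60. For Egfr pericentral against periportal in the library labelled AEG-1DMAC, the ratio was -0.43 without the 10% of hepatocytes with most counts, -0.51 as a mean over cells and -0.79 with the order set by other check genes. In the library labelled AEG-1fl/fl, the same 3 gave -0.04, 0.07 and -0.31, the stricter gate -0.17, and hepatocytes without those of low marker share -0.20. The stricter gate gave 2.97 for Mtdh in macrophages and 6 of 21 member and type pairs past 1.5-fold in nonparenchymal cells, where 10 of 23 were reported. Also chosen after seeing the data, the mean over cells gave 14 of 23 and leaving out the cell with most counts of the member gave 9, and the subtraction 10 of 17. At a fold of 2, 2 pathway genes were higher and 1 lower. The causes of these shifts were not tested. The highest of 5 cell types was the same in both libraries for 6 of the 9 members, and for 5 to 8 under 5 alternatives. Of 152 values for single genes in hepatocytes other than Egfr and Mtdh, 131 stayed within the counting interval, 21 did not and 0 reversed a difference past 1.5-fold. Of 9 values each, 5 for Egfr between libraries, 3 for its zones in the library labelled AEG-1DMAC and 5 in the library labelled AEG-1fl/fl lay outside that interval, as did 1 of 5 for Mtdh. Of 63 values for the 10 pairs, 55 stayed within it, 5 did not and 3 reversed: after subtraction of the hepatocyte profile Egfr was at 3.40 in cholangiocytes and, with 3 counts in place of 0, at 4.47 in stellate cells, and with Seurat clusters Erbb2 was at -0.50 in cholangiocytes. No paired analysis was possible because each genotype has 1 library. Depth limits Egf in each type, and Areg and Ereg outside the type with most of their counts.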
